A study of Mus musculus with 4 samples.

Results

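The genes described here encode the proteins that carry the signal of Toll-like receptors from the membrane into the cell. They are the adaptors Myd88, Tirap, Ticam1 and Ticam2, the kinases Irak1, Irak2, Irak3 and Irak4, and the ubiquitin ligases Traf3 and Traf6. A probe set, a group of short probes for 1 transcript, was included when its only gene symbol in the platform annotation was 1 of these 10 genes. That gave 16 of the 45037 probe sets on the array. They covered 7 of the 10 genes, of 18193 genes with a symbol on the array: 1 probe set for Myd88, 2 for Tirap, 1 for Ticam1, 4 for Irak1, 1 for Irak2, 2 for Irak3 and 5 for Traf6. Ticam2, Irak4 and Traf3 were not analysed here, since the annotation used pairs no probe set with their symbols alone.

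RNA was measured on 4 arrays of bone marrow-derived macrophages, MyD88 -/-, cultured for 6 days with recombinant human M-CSF, which turns marrow precursors into macrophages. The unstimulated group (0 min, 2 arrays) received no stimulus. The zymosan group (2 arrays) received 100 ug/ml zymosan, a yeast cell wall particle, for 120 min. All cells of both groups lacked MyD88 and wild-type cells were not analysed here, so the comparison asks what zymosan changed in its absence and says nothing of what depends on it. The labels name neither the strain and age of the mice nor separate animals or cultures behind the arrays of a group. The p-values therefore measure only the spread between these arrays, part of which may be technical.

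Toll-like receptors and receptors of the interleukin-1 family bind adaptors through a shared TIR domain. MyD88, brought to some of these receptors by TIRAP, assembles IRAK4 with IRAK1 or IRAK2, and these hand the signal to TRAF6, whose ubiquitin chains activate the TAK1 and IKK kinases and so NF-kB. TRIF, the product of Ticam1, together with TRAM, the product of Ticam2, forms the route that does not need MyD88 and that uses TRAF3 to reach interferon genes. IRAK-M, the product of Irak3, is known in macrophages as a brake on this pathway. Zymosan is bound by Toll-like receptor 2 and also by the lectin Dectin-1, which signals through the kinase SYK and the CARD9, BCL10 and MALT1 complex.

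The unstimulated arrays were processed on separate days, 16 days apart, and both zymosan arrays together on a later day, 153 days after the first of them. The later day also had its own operator and project, and LPS and PIC stand in the titles of the unstimulated arrays. No day held both groups, so processing day and zymosan cannot be told apart in any result. The spread of the zymosan arrays holds no difference between days, so the standard errors and p-values may be too small. Over all tested probe sets the median absolute gap was 0.15 between the unstimulated arrays and 0.11 between the zymosan arrays (log2). Of 8 macrophage markers 5 were lower and 0 higher with zymosan by limma (5 had an unadjusted p under 0.05, all lower), and their summed level was 15.52 and 15.61 on the unstimulated arrays and 15.34 on each zymosan array (log2). Of 10 markers of neutrophils and granulocyte precursors, 9 were higher, and their summed level was 10.09 and 10.16 on the unstimulated against 12.29 and 12.35 on the zymosan arrays. Over all 13222 genes tested, limma called 10.1% higher and 6.73% lower. None of the 10 neutrophil and granulocyte precursor markers lay below the 40th percentile of the array, the level of the filter used below, on every array. Of the T and NK cell, B cell, dendritic cell, mast cell and fibroblast markers, 3 of 4, 1 of 3, 1 of 5, 3 of 3 and 2 of 3 were below that level on every array. The 1 erythroid marker measured read 4.41 and 4.0 on the unstimulated and 4.12 and 4.19 on the zymosan arrays. It did not pass the filter, whose level was 4.36 to 4.39. None of these lists had a higher summed level on both zymosan arrays than on both unstimulated arrays. All but the erythroid one were lower on both. The dendritic cell list read 8.35 and 8.3 on the unstimulated arrays and 7.94 on each zymosan array. Limma called Itgax (-0.93) lower among 4 tested dendritic cell markers and Cd79b (-0.58) lower among 2 tested B cell markers, and 0 higher in either list. The part of these marker differences in the results below was not tested, and in bulk RNA fewer cells of a type and less RNA per cell cannot be told apart.

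The promoter letters of Irak2 and Irak3 are shown because these were the genes with a called probe set. They are the 250 bases upstream of the RefSeq start that lies farthest upstream, on build GRCm38.p6, written 5′ to 3′ on the gene's strand. They were searched on both strands, with the 50 bases after the start, for a kappa B motif, the AP-1 motif TGANTCA, the CRE TGACGTCA, the ISRE core (GAAA, any 2 bases, GAAA) and the EGR motif GCGNGGGCG. Capitals would mark a match.
Irak2, chr6:113638217-113638466, plus strand: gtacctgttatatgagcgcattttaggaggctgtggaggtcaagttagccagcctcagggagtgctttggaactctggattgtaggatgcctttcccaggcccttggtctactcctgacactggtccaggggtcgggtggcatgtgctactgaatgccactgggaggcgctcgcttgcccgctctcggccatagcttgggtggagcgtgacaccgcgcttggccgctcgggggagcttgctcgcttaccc
Irak3, chr10:120202131-120202380, minus strand: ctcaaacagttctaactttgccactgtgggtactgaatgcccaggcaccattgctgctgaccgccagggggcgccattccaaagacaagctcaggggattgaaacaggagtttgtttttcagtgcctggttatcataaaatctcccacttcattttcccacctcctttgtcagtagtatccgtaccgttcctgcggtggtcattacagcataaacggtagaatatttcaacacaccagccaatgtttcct
Neither window, nor that of the other Irak3 start, held any of these letters, which says nothing of the factors. The Irak2 window had 18 CpG dinucleotides and 62.3% G and C, and the Irak3 window 8 and 46.7%, beside medians of 7 and 52.7% over 32851 RefSeq promoter windows of the same length.

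RefSeq windows of 9 of the 10 genes were used, and Ticam2 was left out of the search. Besides Traf3, which has a kappa B match and 4 EGR matches but no measured probe set here, Myd88 and Irak1 held a match, printed with their flanks and with the match in capitals.
Myd88, chr9:119340029-119340078, minus strand: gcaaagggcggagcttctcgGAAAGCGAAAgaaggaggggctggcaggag
Irak1, chrX:74023922-74023959, minus strand: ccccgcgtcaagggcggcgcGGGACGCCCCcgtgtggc
The Myd88 match is to the ISRE core, the element bound in interferon-induced genes, and 3.44% of all windows held one. The Irak1 match is to the kappa B motif of NF-kB, read on either strand at the same bases, and 8.46% of all windows held one. The AP-1, CRE and EGR motifs were in 7.81%, 1.79% and 5.55% of all windows. A match is a description of the letters only.

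Most of this relay had no called change with zymosan: Irak2 was higher, 1 of the 2 Irak3 probe sets was lower, and no other probe set of the group passed the test. The test was limma's moderated test of zymosan minus unstimulated on the log2 scale, fitted on all probe sets that reached the 40th percentile of the array on at least 2 arrays, and adjusted over all of them by Benjamini-Hochberg (threshold 0.05). Of the 16 probe sets, 15 reached that level and were tested. With 1 higher and 1 lower, 13.3% were called, beside 15.9% of all 27571 tested probe sets (8.48% higher and 7.45% lower), so the share was near that of the array as a whole. The median difference of the 15 was 0.09 and the median absolute difference 0.22, against -0.01 and 0.20 over all tested probe sets. The arrays of the groups did not overlap at 12 of the 15 probe sets, where 60.6% of all tested probe sets did not overlap. Unadjusted, 6 of the 15 had a p under 0.05, where 32.1% of all tested probe sets did.

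**Figure D1:**
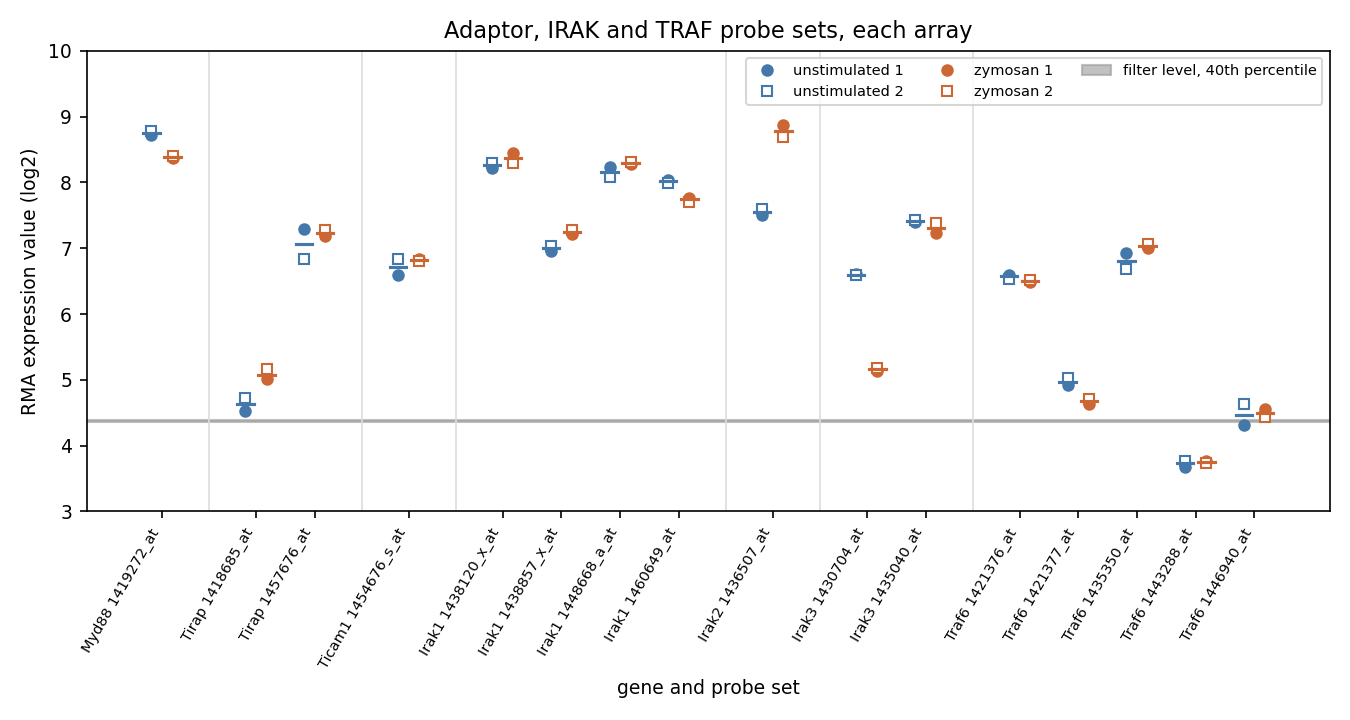
RMA expression value (log2) of each of the 16 probe sets on each array. Blue marks are unstimulated and orange marks zymosan arrays, filled for array 1 and open for array 2, short bars are group means, and the grey line is the level of the filter. Irak2 1436507_at lies higher on both zymosan arrays, Irak3 1430704_at lower, and Irak3 1435040_at at about the same height in both groups.

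Myd88, the gene deleted in these mice, still gave a signal on every array. Its probe set read 8.72 and 8.78 on the unstimulated arrays and 8.37 and 8.40 on the zymosan arrays (log2). Both zymosan arrays lay below both unstimulated arrays. Where the probes lie relative to the deletion was not determined, and both groups carry the same genotype label, so the level checks no label. The difference was -0.37 (SE 0.10, 95% interval -0.62 to -0.11) and did not pass the test (limma adjusted p = 0.0673). It lay close to the threshold: the adjusted p ran from 0.0466 to 0.301 over 11 alternative settings and passed in 3 of them, with the difference between -0.40 and -0.34 throughout.

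Tirap, which tethers MyD88 to the membrane near Toll-like receptors 2 and 4, was not called at either probe set. At 1418685_at it read 4.53 and 4.73 on the unstimulated and 5.01 and 5.16 on the zymosan arrays. Those values do not overlap but sit just above the filter's level of 4.36 to 4.39, and the difference of 0.45 (SE 0.13, 95% interval 0.14 to 0.77) had a limma adjusted p of 0.0667. At 1457676_at the unstimulated arrays were themselves apart, at 7.29 and 6.83, and enclosed both zymosan arrays, at 7.18 and 7.28. The difference there was 0.17 (95% interval -0.26 to 0.60, limma adjusted p = 0.559). The differences at the 2 Tirap probe sets were not separable (limma adjusted p = 0.455 for one against the other).

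Ticam1, which encodes TRIF, is the measured adaptor of the route that does not need MyD88. It read 6.60 and 6.84 on the unstimulated and 6.83 and 6.80 on the zymosan arrays, which overlap. Its difference of 0.09 had a 95% interval of -0.22 to 0.40 (limma adjusted p = 0.668), which does not reach the Irak2 difference of 1.23. That interval rests on the spread between the arrays and does not cover an effect of the processing day. Its probe set name ends in s_at, the mark for probes shared by several transcripts.

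Irak2 was the measured kinase of this group that rose. IRAK2 is the relative of IRAK1 that is known to sustain signalling late in the response. Its probe set read 7.50 and 7.60 on the unstimulated arrays and 8.87 and 8.69 on the zymosan arrays. Both zymosan arrays stood above both unstimulated arrays, and the arrays of a group were 0.10 and 0.18 apart. The fold of 2.35 had a 95% interval of 1.92 to 2.88 (log2 difference 1.23, SE 0.12, limma adjusted p = 0.00474). Of all tested probe sets, 410, or 1.49%, had a fitted increase at least as large. The difference stayed between 1.14 and 1.32 over the 11 alternative settings, with adjusted p-values from 0.00281 to 0.0480, and all 11 passed. Without zymosan replicate 1 it was 1.14 (limma adjusted p = 0.0465), and without zymosan replicate 2 it was 1.32 (limma adjusted p = 0.0480). Irak2 had 1 probe set, so no second reading of it was available.

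**Figure D2:**
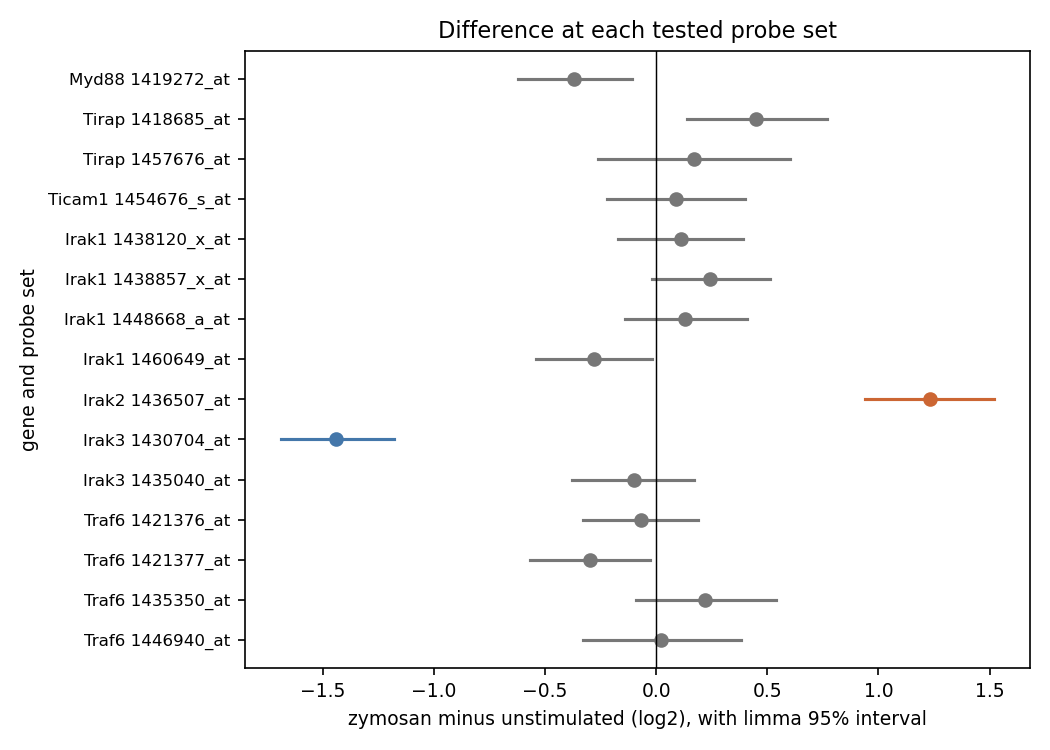
Difference between zymosan and unstimulated arrays (log2) at the 15 tested probe sets, with limma's 95% interval over 2 arrays per group. Orange is higher and blue lower at an adjusted p under 0.05, and grey did not pass. Irak2 (1.23) and Irak3 1430704_at (-1.44) stand away from the other 13, which lie between -0.37 and 0.45.

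Irak3 gave a different answer at each of its probe sets. At 1430704_at it read 6.61 and 6.59 on the unstimulated and 5.14 and 5.18 on the zymosan arrays. The arrays of each group almost coincide there, and the groups are far apart. The value was 2.71-fold lower with zymosan (95% interval 2.27 to 3.23, log2 difference -1.44, SE 0.10, limma adjusted p = 0.0025). Only 278 tested probe sets, or 1.01%, had a fitted decrease at least as large. It passed in all 11 alternative settings, with differences of -1.46 to -1.41 and adjusted p-values of 0.00192 to 0.0404, the largest without zymosan replicate 2.

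At 1435040_at, the Irak3 probe set with the higher signal, the readings were 7.40 and 7.43 on the unstimulated and 7.23 and 7.39 on the zymosan arrays. Both zymosan arrays were lower than both unstimulated arrays, by a mean distance smaller than the gap between the zymosan arrays. The difference was -0.10 (95% interval -0.38 to 0.17, limma adjusted p = 0.580), and it passed in none of the 11 settings. Whether the Irak3 transcript is called lower therefore depends on the probe set that stands for the gene. With the probe set of highest mean, limma called no measured gene of the group lower (Myd88 had an unadjusted p of 0.00856), and with the mean of the probe sets Irak3 fell by 0.77 on the log2 scale (limma adjusted p = 0.00631).

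The disagreement was tested directly, a comparison added after the values were seen. For the 3404 genes with exactly 2 tested probe sets, the per-array difference between them was fitted with limma. The Irak3 probe sets differed in their response by 1.33 (SE 0.16, limma adjusted p = 0.00153), and by 1.28 to 1.39 with any 1 array left out. Such a distance was uncommon, since 67 of the 3404 genes, or 1.97%, had a pair at least as far apart, against a median distance of 0.24. A pair that differed past the threshold was less unusual, at 520 genes or 15.3%. Of 952 genes with at least 1 of 2 probe sets called, 721, or 75.7%, had only 1 called. The positions of the probes along the transcript were not used here, so which forms of the Irak3 RNA each probe set reads is not known.

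**Figure D3:**
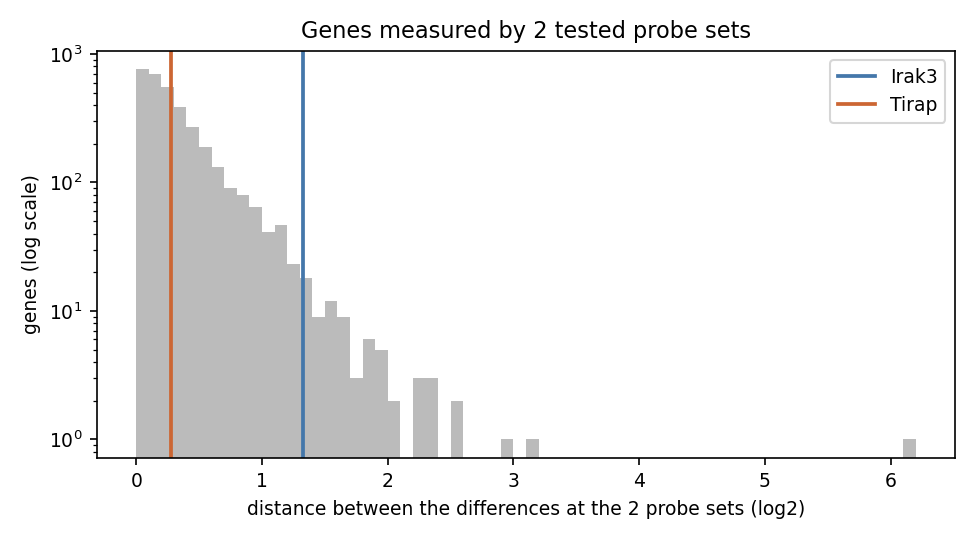
Number of genes (log scale) by the distance between the differences measured at their 2 tested probe sets (log2), for 3404 genes. The blue line marks Irak3, at 1.33, far into the right tail, and the orange line Tirap, at 0.28, near the bulk of genes.

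By the rule of smallest distance over the 4 arrays after centring, the profiles most like that of Irak3 1430704_at were those of Rbsn, Sesn2, Pdlim5, St8sia4 and Marchf1. Their distances were 0.047 to 0.086, and the differences of the 4 besides Rbsn were -1.50 to -1.46. The zymosan arrays of Rbsn were below the filter's level, so its difference is only a bound. With 4 arrays in 2 groups such likeness mostly restates the size of the decrease and the closeness of the arrays.

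Irak1, the kinase that joins IRAK4 to TRAF6, was read by 4 probe sets and called at none (limma adjusted p = 0.134 to 0.561, with 1 of 4 at an unadjusted p under 0.05). On 3 of them the difference was above 0, from 0.11 to 0.24. The remaining one, 1460649_at, read 8.04 and 7.99 on the unstimulated and 7.77 and 7.70 on the zymosan arrays, a difference of -0.28 (95% interval -0.54 to -0.02). The probe sets thus pointed in both directions by small amounts, and their gene mean differed by 0.05 (limma adjusted p = 0.725). Of the 4, 1438120_x_at and 1438857_x_at carry the mark for probes that may also bind other transcripts.

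Traf6, the ubiquitin ligase at which the MyD88 route and the CARD9 route meet, was likewise not called (limma adjusted p = 0.125 to 0.937 over 4 tested probe sets, 1 with an unadjusted p under 0.05). Its probe sets differed by -0.30 at 1421377_at, -0.07 at 1421376_at, 0.02 at 1446940_at and 0.22 at 1435350_at. At 1435350_at, of highest mean, it read 6.93 and 6.68 on the unstimulated and 7.0 and 7.07 on the zymosan arrays, with a 95% interval of -0.09 to 0.54. The fifth probe set, 1443288_at, lay below the filter's level on all 4 arrays, at 3.68 to 3.77, and was not tested. At 1446940_at 1 array was below that level, and 1421377_at was close above it at 4.64 to 5.03. The mean over the tested Traf6 probe sets differed by -0.03 (limma adjusted p = 0.851).

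In the rest of the pathway higher and lower calls were equal in number. Of 73 other genes tested, each by its probe set of highest mean, 9 were higher and 9 lower. That is 24.7% called, 12.3% in each direction, where 16.8% of all 13222 genes were called, 10.1% higher and 6.73% lower. Their median difference was -0.01, beside 0.00 over all genes. Without zymosan replicate 1, limma called 3 higher and 1 lower, and without zymosan replicate 2 it called 4 and 0. All 18 kept their direction and an unadjusted p under 0.05 both times, but 4 stayed called: Birc3, Tnfaip3 and Malt1 both times, Tlr8 without replicate 1 and Traf1 without replicate 2. A random block for the day of processing cannot separate the day from zymosan, since no day held both groups. With this block, 14 of the 18 stayed called, and Tlr7, Il18rap, Tnip1 and Otud5 did not. Otud5 was also not called without unstimulated replicate 1, nor were Otud5 and Tlr7 without unstimulated replicate 2.

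Among 16 receptors of the Toll-like and interleukin-1 families and their co-receptors, 1 was higher and 5 lower, with a median of -0.21. Tlr2, the Toll-like receptor for zymosan, rose by 1.27 on the log2 scale (limma adjusted p = 0.00611). Tlr8, an RNA sensor, fell by 1.24 (limma adjusted p = 0.0043), and Tlr4, the endotoxin receptor, fell by 0.89. Its co-receptor Cd14 fell by 0.70. Il18rap and Tlr7, the calls lost with the day as a block, had smaller differences, of -0.60 and -0.57, and the block left 3 receptors lower. The difference at that Il18rap probe set minus the difference at its second one was -0.42 (limma adjusted p = 0.147). Tlr4 and Tlr7 each had 2 other tested probe sets, whose values are not given here. Without unstimulated replicate 1 or unstimulated replicate 2, 2 receptors were higher each time.

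Of 12 other TRAFs and TRAF partners, 2 were higher and 1 lower, with a median of 0.11. Traf1, a TRAF without ligase activity, rose 2.54-fold, from 5.26 and 4.99 to 6.67 and 6.27 (limma adjusted p = 0.00679). Its second probe set was also higher, by 0.92. Birc3, a ubiquitin ligase that binds TRAF2, rose 2.47-fold (limma adjusted p = 0.00361), while its second probe set differed by 0.46 and did not pass (limma adjusted p = 0.104). Tifab, a relative of the TRAF6 activator TIFA, fell by 0.77 at 1 probe set and 0.52 at the other. Without unstimulated replicate 2, 4 of these genes were higher and 2 lower.

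Of the TAK1 and IKK complexes, which act just after TRAF6, Chuk had no probe set with its symbol alone and was not tested. Limma called 0 of the other 11 genes (3 had an unadjusted p under 0.05, 2 of them lower), and the median was -0.01. Without unstimulated replicate 1, 1 was higher and 1 lower, and 1 was lower with the mean of the probe sets of a gene. In the TRIF arm 1 of 9 was higher and 1 lower, with a median of -0.05. Ikbke, a kinase that activates interferon regulatory factors, rose 1.67-fold, and Irf7, itself interferon-induced, fell by 2.81 on the log2 scale (limma adjusted p = 0.00676). The unstimulated arrays were far apart for Irf7, at 9.24 and 8.09, and both above the zymosan arrays, at 5.95 and 5.77. Tbk1 (-0.12) and Irf3 (0.01), the kinase and factor at the core of that arm, did not pass the test. Without unstimulated replicate 2, 2 genes of the arm were lower.

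Among 19 Pellino ligases and proteins that restrain this relay, 3 were higher and 2 lower, with a median of 0.00. Tnfaip3, which encodes A20, an enzyme that trims TRAF6 ubiquitin chains, rose 6.21-fold (limma adjusted p = 0.000213), and Tollip, an inhibitor of IRAK1, rose 1.66-fold at the probe set that stood for it. Tnip1, the partner gene of Tnfaip3, was called 1.76-fold higher, but not with the day as a block, which left 2 higher and 1 lower in this list. Another Tollip probe set pointed the other way, at -0.64, without passing (limma adjusted p = 0.0747). Tnfaip3 had 1 other tested probe set, and Otud5, named below, had 2 others. Their values are not given here. Socs1, a suppressor of cytokine signalling, was below the filter's level on both zymosan arrays and at least 1.47-fold lower against that level (limma adjusted p = 0.0131). Otud5 differed by -0.39, a call lost with the day as a block and without either unstimulated array. Without unstimulated replicate 2, 1 gene of the list was lower. Sigirr (-0.17), Sarm1 (0.00) and Peli1 (0.18), all regulators of this relay, did not pass.

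Card9 had no probe set with its symbol alone and was not tested. In the list of linked kinases and the CARD9 arm, 2 of the 6 genes tested were higher, Malt1 and Syk. Limma called 0 lower (3 lower genes had an unadjusted p under 0.05). With the mean of the probe sets of a gene 1 was higher and 2 lower, and without unstimulated replicate 2, 1 was lower. Malt1, the protease that works with TRAF6 in that arm, rose 2.54-fold, from 6.91 and 6.90 to 8.07 and 8.44 (limma adjusted p = 0.00427). Its other probe sets were also higher, by 1.67 and 2.23. Bcl10 differed by 0.07 and did not pass. Syk rose by 0.68 on the log2 scale at the probe set that stood for it. Of its 3 other tested probe sets, 1 fell by 1.62 (limma adjusted p = 0.00449), and the values of the rest are not given here.

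**Figure D4:**
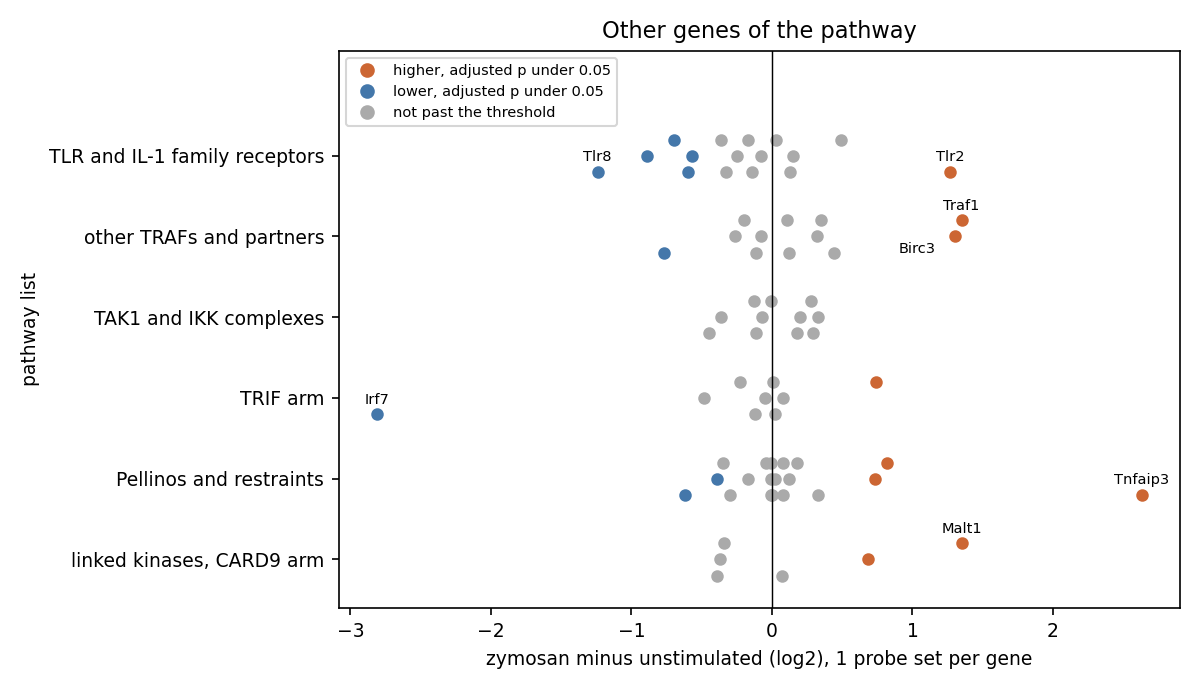
Difference between zymosan and unstimulated arrays (log2) of the 73 other pathway genes, 1 dot a gene, by list, with dots staggered for legibility. Orange is higher and blue lower at an adjusted p under 0.05, and grey did not pass; genes called with a difference beyond 1 are named. Tnfaip3 (2.63) and Irf7 (-2.81) lie farthest out, and the TAK1 and IKK complexes hold no coloured dot.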

How the data were processed

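The 4 arrays were Affymetrix Mouse430_2 chips, hybridised with biotin-labelled cRNA made from 4 ug of total RNA. The authors deposited log2 values from RMA (named in the submitters' processing notes), a method that removes background, makes the arrays alike in distribution and combines the probes of a probe set. The sources used here give neither its version nor which arrays were normalized together. No further normalization was applied. Scanner settings files gave only chip type, day, operator and project.

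After 64 controls were set aside, 27571 of 45037 probe sets passed the filter. Gene names came from the platform annotation, with symbols updated through gene identifiers. For gene counts, the probe set of highest mean stood for a gene (13222 genes). Differences were tested with limma 3.58.1 (lmFit, eBayes; R 4.3.3; 2-sided, Benjamini-Hochberg), checked on simulated data. The smallest 2-sided p of an exact permutation test of 2 arrays against 2 is 0.333. The number of arrays limits the precision.

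The genes, pathway lists and marker lists were chosen with earlier results of these data known. Named were all probe sets of the group and, in each pathway list, up to 3 called genes of largest difference per direction. Genes named beyond that rule (Il18rap, Tlr7, Tbk1, Irf3, Sigirr, Sarm1, Peli1, Bcl10) were chosen after their values were seen. Alternatives were other filters, quantile normalization, a median shift, another variance model, the processing day as a random block, other ways to represent a gene, and leaving out each array.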

Additional observations from a re-analysis of the deposited data

How the results depend on the processing

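The Irak2 and Irak3 1430704_at calls held in all 11 alternatives. Leaving out 1 array gave 231 to 2531 probe sets higher and 157 to 2280 lower (2339 and 2054 with all arrays), and 161 to 1782 genes higher and 100 to 1133 lower (1335 and 890). The low ends came without zymosan replicate 2. A group with 1 array left was assumed to vary like the other. A random block for the processing day was added once the data had been seen, and gave 1053 and 937 probe sets and 589 and 400 genes higher and lower. It cannot separate the day from zymosan, since no day held both groups. Limma's function gave no block correlation for 4 arrays, so 0.448 was taken from the array pairs. The group's lower calls were 2 probe sets of 2 genes, Myd88 joining Irak3, in 3 settings. These were the 60th percentile filter, the filter on the mean of all probe sets and the trended robust variance. With the mean of a gene's probe sets the same 2 genes were called lower. With the probe set of highest mean only, limma called 0 genes lower, where 1 had an unadjusted p under 0.05. No called difference changed sign. Uncalled ones did with 1 array left out, for Ticam1 (-0.03 to 0.21), Tirap 1457676_at (-0.06 to 0.41) and Traf6 1446940_at (-0.14 to 0.18, with -0.03 without zymosan replicate 1). Apart from what fewer arrays or tested probe sets make of a call, the cause was not tested. No paired analysis was run, since the labels pair no unstimulated array with a zymosan array and no processing day held both groups. Replicate numbers in this text follow the order of the arrays.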
